A study of Mus musculus with 12 samples.

Results

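Collagen chains were followed from white fat to liposarcoma in mice with an active Notch pathway in their fat cells. A collagen gene was any row of the deposited table whose symbol, or any part of a joined symbol, had the form Col, number, a, number, and 44 of 37750 rows met that rule. They were grouped as 11 fibrillar, 8 basement membrane, 6 beaded and 19 other chains. Col7a1 shared its row with the microRNA gene Mir711, and the other 43 rows named a single gene. The rule used symbols and no measured value.

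All 12 libraries came from Ad/NICD mice of a mixed 129 x C57BL/6 strain, so the controls carried the same transgene as the tumours. In the model of that name an adiponectin-driven Cre switches on the intracellular domain of Notch1 (NICD), the active part of the receptor, in adipocytes. WAT denotes white adipose tissue of mice 3 weeks old (n = 4), and LPS denotes liposarcoma, a malignant tumour of the fat lineage, of mice 9 to 12 months old (n = 8). The tumours differ from the fat in both age and tissue, whose effects cannot be told apart. The labels call the samples biological replicates, and do not say whether each came from a different animal.

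Collagens are trimers of chains in which the helical part repeats a triplet that begins with glycine. Fibrillar collagens (types I, III and V among them) polymerise into the tensile fibrils of connective tissue, and type I is made of Col1a1 and Col1a2 chains. Type IV collagen forms the sheet-like network of basement membranes, which surround each adipocyte and every vessel, and types XV and XVIII decorate that sheet. Type VI collagen builds beaded filaments around adipocytes and other cells. FACIT collagens bind to the surface of fibrils, and transmembrane collagens stay anchored in the cell that makes them.

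In the coding sequence, fibrillar chains differ from the other classes in their longest uninterrupted run of glycine triplets. Stretches of 90 bases from the GENCODE M21 transcripts are shown as examples, codons 168 to 197 of Col1a1 and 148 to 177 of Col4a1. The genes were taken because Col1a1 was lower and Col4a1 higher in the tumours. The Col1a1 stretch opens the longest run of that chain, at codon 168. The Col4a1 stretch lies across the end of its longest run, which starts at codon 43. Capitals mark the glycine codons (GGN) of the repeat.
Col1a1: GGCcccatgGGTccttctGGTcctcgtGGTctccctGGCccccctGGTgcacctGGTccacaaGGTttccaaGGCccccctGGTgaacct
Col4a1: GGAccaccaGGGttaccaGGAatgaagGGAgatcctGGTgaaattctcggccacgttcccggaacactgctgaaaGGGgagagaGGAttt
The Col1a1 stretch holds 10 glycine codons in strict steps of 3 codons, while in the Col4a1 stretch 7 glycine codons belong to the repeat, which has a break. That contrast follows from where the stretches lie, and the comparison of classes rests on the longest runs. The longest uninterrupted run was 338 triplets in Col1a1 and 40 in Col4a1. Over the classes, its median was 338 triplets in fibrillar chains (216 to 344), 41 in basement membrane chains (30 to 66), 45 in beaded chains (37 to 87) and 55 in the others (23 to 113). The median was 42.5 triplets over the 8 chains called higher below and 42 over the 7 called lower.

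The type IV chains lie in 3 pairs of genes that are read in opposite directions from neighbouring starts. The stretches between the starts are shown on GRCm38, 5′ to 3′ on the strand given, because the paired genes are compared with each other later. The first exons of Col4a1 (minus strand) and Col4a2 (plus strand) overlap by 22 bases at chr8:11312805-11312826, plus strand. The starts of Col4a4 and Col4a3 leave 71 bases that are no exon, chr1:82586850-82586920, plus strand. Those of Col4a6 and Col4a5 lie 1308 bases apart, and the 250 bases before Col4a6, chrX:141474077-141474326, minus strand, hold 1 TTCCCA, the reverse complement of TGGGAA, set in capitals.
Col4a1/Col4a2: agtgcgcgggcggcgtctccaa
Col4a4/Col4a3: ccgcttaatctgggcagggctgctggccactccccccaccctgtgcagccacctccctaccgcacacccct
Col4a6: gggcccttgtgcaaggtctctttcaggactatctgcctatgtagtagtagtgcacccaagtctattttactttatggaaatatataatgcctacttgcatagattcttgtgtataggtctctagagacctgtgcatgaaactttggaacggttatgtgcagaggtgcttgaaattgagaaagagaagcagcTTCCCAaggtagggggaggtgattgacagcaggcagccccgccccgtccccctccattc
TGGGAA is the core of the site bound by RBPJ, the DNA-binding partner of NICD. RefSeq windows of 300 bases around gene starts (GRCm38.p6) existed for 35 of the 44 genes, in 38 windows, and 12 of these (31.6%) held TGGGAA on either strand, against 25.6% of all 32851 windows. CCAAT, the box bound by NF-Y and other factors, was in 13 of the 38 windows (34.2%) against 37.4% of all, Col4a1 and Col4a2 among them. These are matches of letters and say nothing of binding.

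Levels are FPKM, fragments counted per kilobase of transcript and per library size, so they can be compared between chains. Between 12965 (LPS 5) and 14248 (WAT 4) rows reached 1 FPKM in a library. Fragment totals are not in the table. Depth was roughly estimated from a low quantile of the non-zero values of genes with 1 transcript, taken as 1 fragment. By that estimate the deepest library (WAT 1) had 2.60 times the depth of the shallowest (LPS 1). A fragment of a 6-kb transcript was then worth 0.00602 to 0.0157 FPKM. Such a quantile need not equal 1 fragment. Libraries WAT 1, WAT 4 and LPS 8 held over 100 FPKM of the muscle gene Ckm, and counts without them are given below. In bulk tissue, fewer cells of a type and less RNA per cell cannot be told apart.

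Tumours and young fat held collagen transcripts in overlapping amounts but of different make-up. Summed over all chains, WAT held 3520 to 5913 FPKM and LPS 3239 to 7917 FPKM. Fibrillar chains made up 71.9% ± 3.6 of that sum in WAT (SD, n = 4) and 29.1% ± 7.65 in LPS (SD, n = 8). Basement membrane chains made up 15.1% ± 1.41 in WAT and 47.5% ± 11.0 in LPS. The ranges of these shares did not overlap: fibrillar chains took 66.9 to 75.3% in WAT and 21.6 to 42.3% in LPS, and basement membrane chains took 13.2 to 16.6% and 27.9 to 60.8%. Beaded chains took 10.0 to 15.04% and 14.5 to 35.5%, which overlap. Col3a1 was the most abundant chain in all 4 WAT libraries, followed by Col1a1 and Col1a2. Col4a1 was the most abundant in 7 of the 8 tumours and Col6a3 in LPS 1. The shares are given as a description, with no test.

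**Figure D1:**
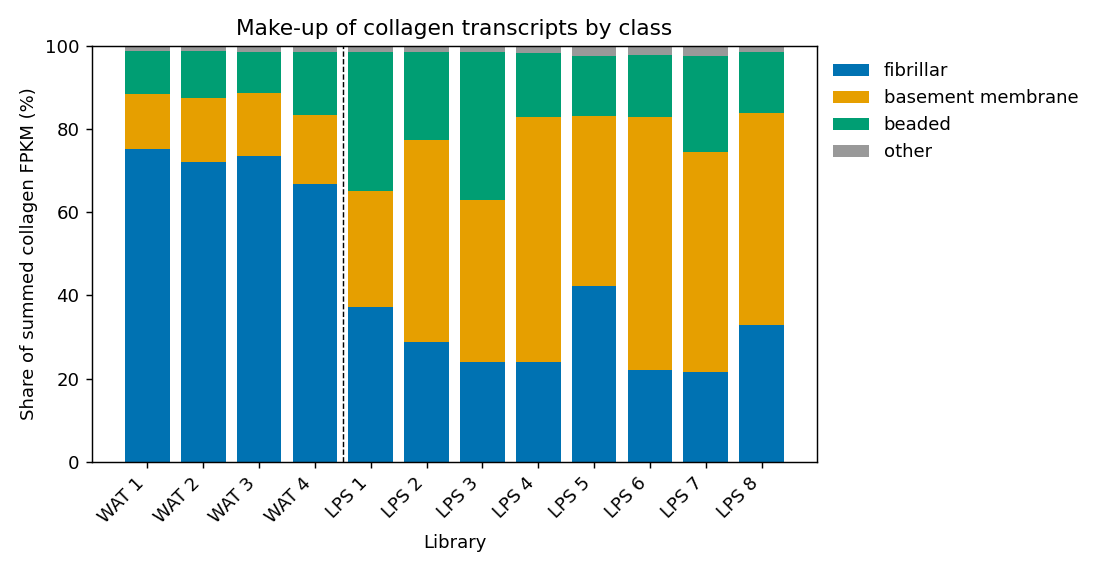
Share of the summed collagen FPKM (y axis, %) taken by fibrillar, basement membrane, beaded and other chains, in each of the 12 libraries (x axis; the dashed line parts WAT from LPS). Fibrillar chains take 66.9 to 75.3% in the WAT libraries and 21.6 to 42.3% in the tumours, and basement membrane chains 13.2 to 16.6% and 27.9 to 60.8%.

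Of the 44 chains, 32 had at least 1 FPKM in at least 4 libraries and were tested, within a limma fit over all 14821 such rows on log2(FPKM + 1). In the tumours 8 chains were higher, 7 were lower and 17 were not called at an adjusted p below 0.05. The 15 called chains are 46.9% of those tested, near the 46% of all rows that were called, so chains were called about as often as other rows. Over all rows 18.9% were called higher and 27% lower. The median log2 difference was 0.02 over the tested chains and -0.05 over all rows. In 12 chains the groups did not overlap (8 higher, 4 lower in LPS), against 32.6% of all rows. Of the 32 tested chains 5 reached 1 FPKM in 1 group only (Col6a6 in WAT, and Col4a3, Col4a4, Col24a1 and Col25a1 in LPS), so that the filter itself favoured a difference, and Col6a6 and Col25a1 are among the chains called and not overlapping. Of the other 27 chains 7 were higher and 6 lower (48.1%), against 43% of the 13760 such rows, with medians of -0.07 and -0.06. By class, 1 of 9 fibrillar chains was higher and 3 were lower, 3 of 7 basement membrane chains were higher and none lower, 1 of 6 beaded chains was higher and 2 lower, and 3 of 10 others were higher and 2 lower. Medians of the log2 difference were -0.64, 0.73, -0.25 and -0.02 in that order, and -0.83, 1.52, 0.06 and -0.07 without the 5 chains. Quantile normalization gave 10 chains higher and 4 lower, and over all rows it took the share of lower calls from 58.8% to 45.2% and the median from -0.05 to 0.10. Without WAT 1, WAT 4 and LPS 8, 5 chains were called higher and 2 lower (0, 3, 1 and 1 higher and 1, 0, 0 and 1 lower by class), and 1327 and 1999 rows in place of 2806 and 4007. The number of lower chains was 3 without WAT 1 or without WAT 3 and 4 without WAT 4. Of these classes, the beaded lower count was 0 without any 1 WAT library and 1 without LPS 1. There Col6a6 was not tested without any 1 WAT library, and Col6a5 was not tested without WAT 1, WAT 2, WAT 4 or LPS 1. The lower count of the others was 1 without WAT 1, WAT 3 or WAT 4. The fibrillar higher count was 2 without LPS 1 or without LPS 3, and 1 basement membrane chain was lower without LPS 7.

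**Figure D2:**
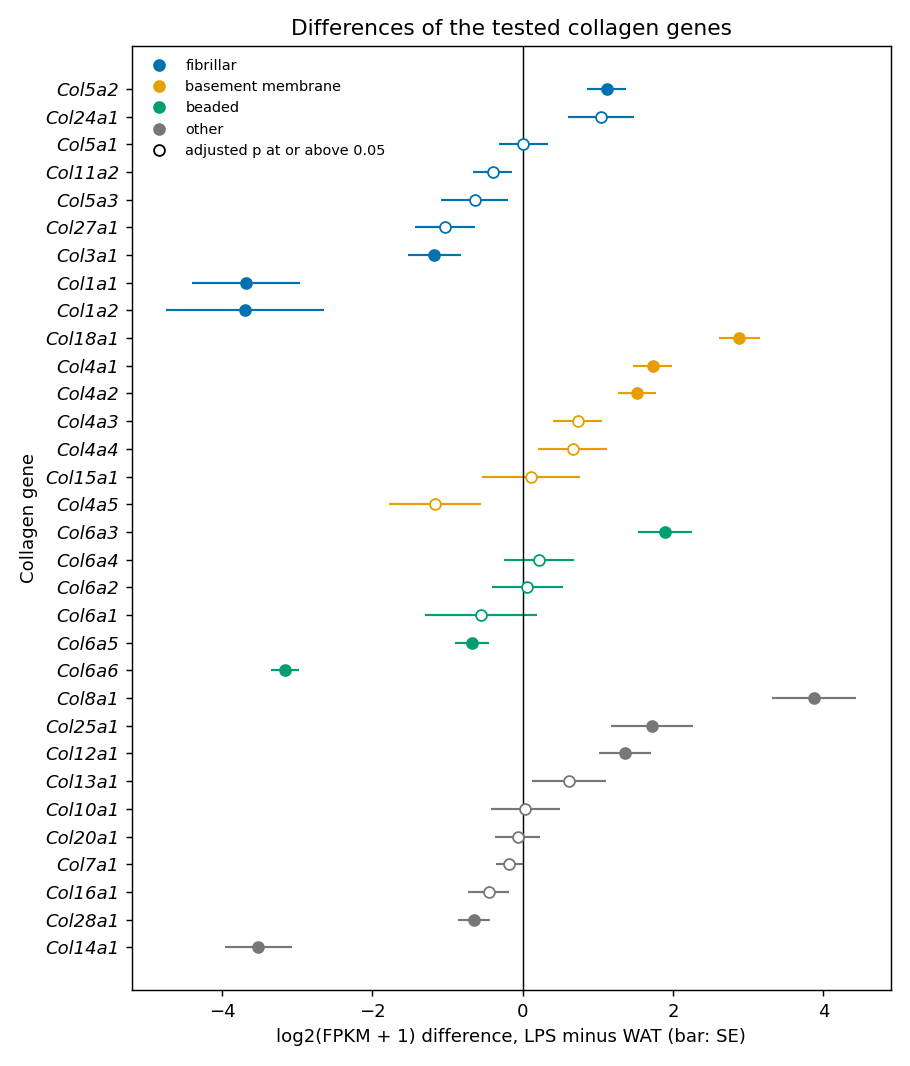
Difference of log2(FPKM + 1) between LPS and WAT (x axis) for the 32 tested collagen genes (y axis), by class, with the standard error as bar; filled points passed an adjusted p of 0.05 in limma and open points did not. Differences run from -3.69 (Col1a2) to 3.88 (Col8a1), and the 3 filled basement membrane chains all lie above 0.

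Both chains of type I collagen, the main fibril of connective tissue, were far lower in the tumours. Col1a1 (ENSMUSG00000001506.10, chr11:94936224-94953042, plus strand) stood at 1166, 761, 910.5 and 486 FPKM in WAT 1 to 4, and at 139, 54.2, 19.2, 121, 299.6, 10.4, 43.2 and 73.9 FPKM in LPS 1 to 8. Every tumour lay below every WAT library, and the highest tumour had 28.8 times the level of the lowest. The means were 831 ± 284 FPKM in fat (SD, n = 4) and 95.1 ± 94.2 FPKM in tumours (SD, n = 8), an 8.74-fold difference, with a log2 difference of -3.68 ± 0.72 (SE) and a limma adjusted p = 0.000986. Col1a2 (chromosome 6) stood at 1049.9, 705, 876 and 458 FPKM in WAT and at 424, 4.11, 186, 26.7, 260.0, 9.10, 54.4 and 68.1 FPKM in LPS 1 to 8. Here too no tumour reached WAT, although LPS 1 came close to WAT 4, and the highest tumour had 103 times the level of the lowest. Its log2 difference was -3.69 ± 1.05 (SE), with a limma adjusted p = 0.0117, and 0.103 without WAT 1, WAT 4 and LPS 8. Together the type I chains made up 26.8 to 37.5% of all collagen FPKM in WAT and 0.309 to 17.3% in LPS.

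The 2 type I chains kept one proportion in fat and many in the tumours. The trimer is built from 2 Col1a1 chains and 1 Col1a2 chain, while the ratio of Col1a2 to Col1a1 FPKM lay between 0.901 and 0.963 in the 4 WAT libraries. In the tumours it was 9.67 in LPS 3, 3.05 in LPS 1, 0.220 in LPS 4 and 0.0759 in LPS 2, with 0.868 to 1.26 in the other 4. The mean log2 ratio differed by only -0.05 between the groups (exact permutation over all 495 divisions, two-sided p = 0.917), while its SD was 0.0406 in WAT and 2.14 in LPS. The difference in spread was noticed in the values and was not tested. The 9 pairs correlated here and below were also chosen after their values were seen, so their p-values are given as a description. Among the 8 tumours the 2 chains had a Pearson r of 0.470 on log2(FPKM + 1) (exact permutation p = 0.242, adjusted over 9 pairs 0.242; Spearman's rho 0.548, p = 0.171, adjusted 0.192), and r was 0.0247 without LPS 5 and LPS 6.

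**Figure D3:**
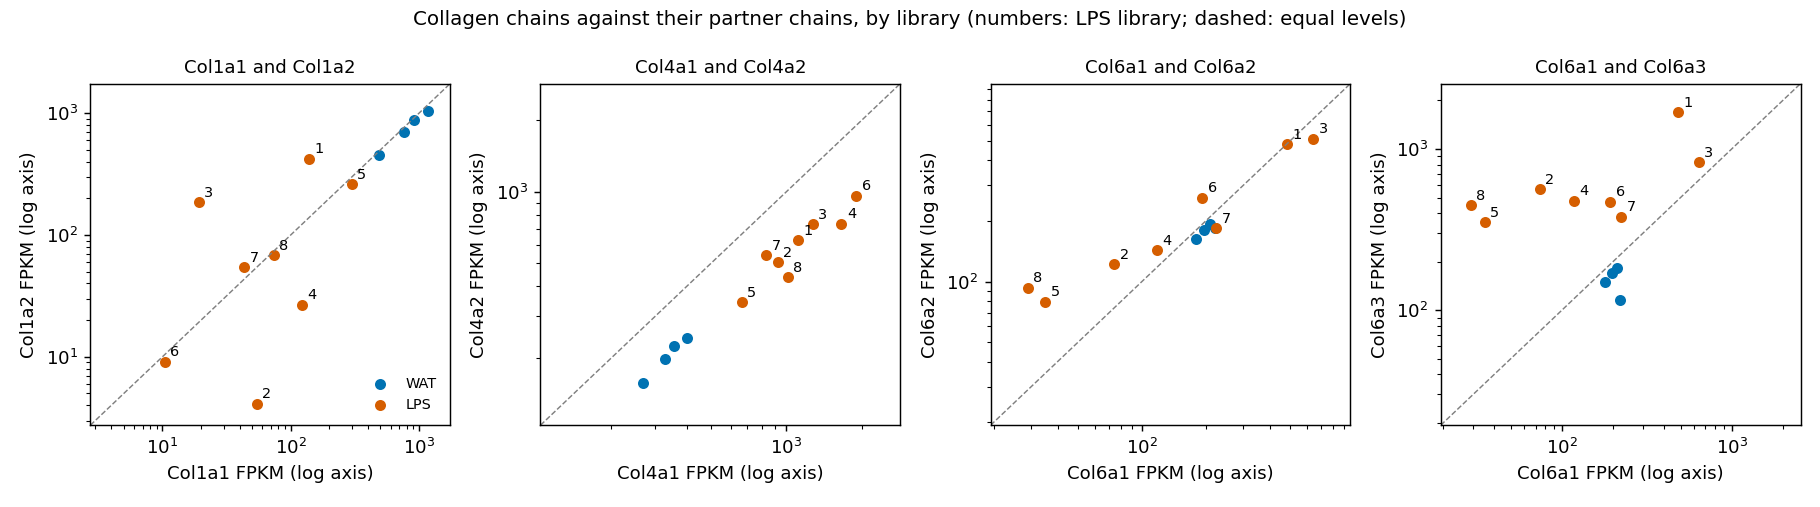
FPKM of one chain (y axis, log) against its partner (x axis, log) for 4 pairs of collagen genes, with 1 point per library, the LPS libraries numbered, and equal levels on the dashed line. The WAT points of Col1a1 and Col1a2 lie close to the line, whereas LPS 3 lies far above it (ratio 9.67) and LPS 2 far below (0.0759); Col4a1 and Col4a2 keep to a band below the line in all libraries.

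Col3a1, the chain of type III collagen in the finer fibrils of soft tissue, was lower by less. It stood at 1805, 1424, 1888 and 979 FPKM in WAT 1 to 4 and at 305 to 1625 FPKM in LPS, with a median of 653 FPKM. Only LPS 1, at 1625 FPKM, lay within the WAT range, and the other 7 tumours lay below it. The log2 difference of -1.18 ± 0.35 (SE) had a limma adjusted p = 0.0151, and the call was lost after quantile normalization (-0.61, adjusted p = 0.132) and in fits without WAT 1, without WAT 3 or without WAT 1, WAT 4 and LPS 8. The ratio of Col3a1 to Col1a1 rose from 1.55 to 2.07 in WAT to 1.75 to 75.1 in LPS, a log2 difference of 2.53 (exact permutation p = 0.0202, adjusted over 12 ratios 0.0333). Leaving out any 1 WAT library ended that call (adjusted p = 0.0727 to 0.0831).

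Type V chains sit inside fibrils and limit their width, and of the 3 Col5a2 was called. Col5a2, the neighbour of Col3a1 on chromosome 1, stood at 106, 78.6, 101 and 60.7 FPKM in WAT and at 346, 186, 188, 183, 137, 239, 113 and 165 FPKM in LPS 1 to 8. All tumours exceeded all WAT libraries. The log2 difference was 1.12 ± 0.26 (SE), limma adjusted p = 0.00336, and 0.0575 without WAT 1, WAT 4 and LPS 8. Col5a1 had 84.0 to 139.9 FPKM in WAT and 51.8 to 245 in LPS (log2 difference 0.01 ± 0.33, limma adjusted p = 0.984), and Col5a3 141 to 275 and 31.0 to 216 FPKM (-0.64 ± 0.44, adjusted p = 0.260). The ratio of Col5a2 to Col5a1 was tight in both groups: 0.723 to 0.765 in WAT and 1.31 to 2.18 in LPS, a log2 difference of 1.12 (exact permutation p = 0.00202, the smallest that 495 divisions can give; adjusted 0.00808). Relative to Col1a1, Col5a1 was higher in LPS, at 0.241 to 12.9 against 0.120 to 0.173 (log2 difference 3.72, exact permutation p = 0.00404, adjusted 0.0121).

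The remaining fibrillar chains were minor. Col27a1 had 8.27 to 10.2 FPKM in WAT, against 0.491 to 9.16 FPKM in the tumours, just short of a call (log2 difference -1.03 ± 0.40, limma adjusted p = 0.0502), and it was called with array quality weights and without LPS 2, LPS 3 or LPS 5. Col24a1 had at most 0.549 FPKM in WAT, against 0.0723 to 5.84 FPKM in the tumours (1.04 ± 0.43, adjusted p = 0.0661), and was called after quantile normalization, with array quality weights, and without LPS 1 or LPS 3. Col11a2 had 1.77 to 2.98 and 0.664 to 3.52 FPKM and was not called. Col2a1 and Col11a1, fibrillar chains of cartilage, were too low to test: Col2a1 was at most 0.0248 FPKM in any library, and Col11a1 exceeded 1 FPKM in LPS 5 (1.66 FPKM) and in no other library.

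**Figure D4:**
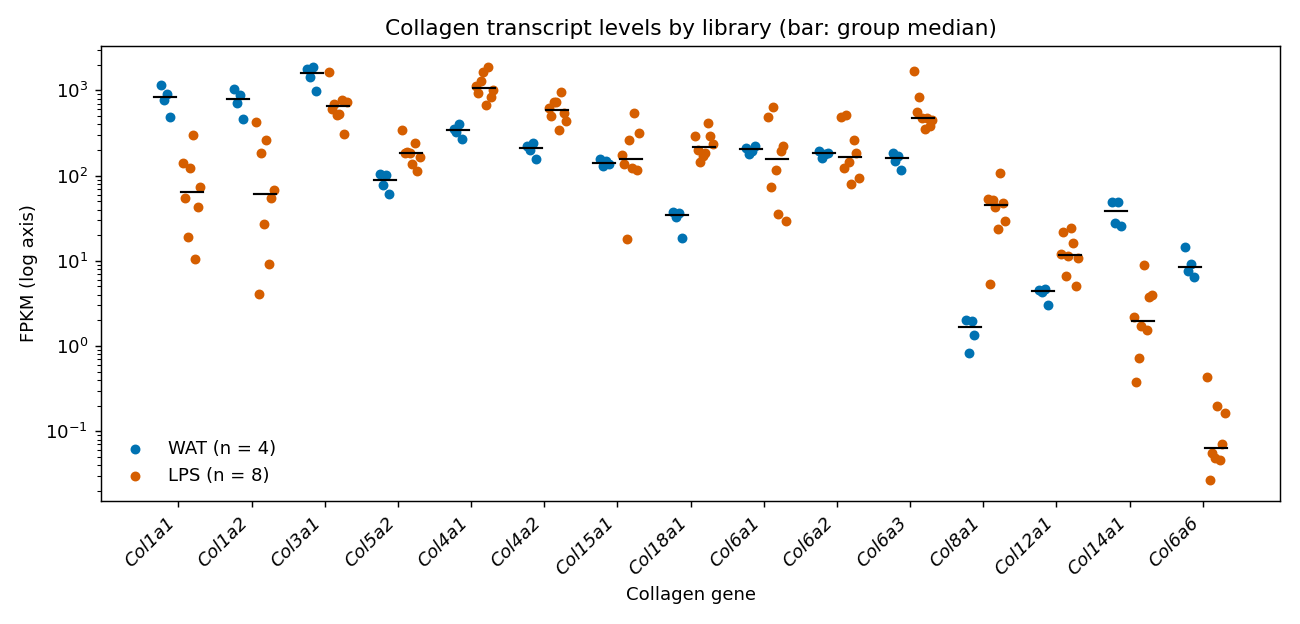
FPKM (y axis, log) of 15 collagen genes (x axis) in each of 4 WAT and 8 LPS libraries, 1 point per library, with the group median as bar. Col1a1, Col1a2, Col14a1 and Col6a6 lie lower in every tumour than in any WAT library, and Col5a2, Col4a1, Col4a2, Col18a1, Col6a3, Col8a1 and Col12a1 lie higher.

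The chains of the common basement membrane network were higher in all tumours. Col4a1 (ENSMUSG00000031502.11) stood at 357, 328, 402 and 267 FPKM in WAT and at 1115, 926, 1273, 1660.1, 665, 1902, 831 and 1017 FPKM in LPS 1 to 8, a 3.47-fold difference of means. Its partner Col4a2 (ENSMUSG00000031503.13) stood at 225, 198, 244 and 156 FPKM and at 625, 506, 733, 735, 343, 962, 542 and 438 FPKM, a 2.97-fold difference. The groups were apart for both, and LPS 6 was the highest and LPS 5 the lowest tumour for each. Log2 differences were 1.73 ± 0.26 for Col4a1 (limma adjusted p = 0.000136) and 1.52 ± 0.25 for Col4a2 (adjusted p = 0.000251), called in all 21 alternatives. The table gives both genes 1 common locus, and the labels name a stranded kit but not whether the counting used strand. Reads from bases that 2 genes share can then not be told apart, and the annotated overlap of Col4a1 and Col4a2 is 22 bases. The limit also touches Col18a1 (with Slc19a1), Col4a3 (with Mff), Col10a1 (with Nt5dc1) and Col9a3 (with Tcfl5), whose overlaps were not measured.

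Col4a1 and Col4a2, which join as 2 chains to 1 in the trimer, had ratios in a narrow range in both groups. The ratio of Col4a2 to Col4a1 was 0.586 to 0.630 in WAT and 0.430 to 0.652 in LPS, a log2 difference of -0.21 (exact permutation p = 0.0667, adjusted 0.0889), which passed only without LPS 7 (adjusted p = 0.0303). Among the tumours the chains went together, with r = 0.920 (exact permutation p = 0.00166, adjusted 0.00335; rho 0.905, p = 0.00456, adjusted 0.0137), and r was 0.763 without LPS 5 and LPS 6. This pair was chosen for correlation after its values were seen. Set against Col1a1, Col4a1 went from ratios of 0.306 to 0.549 in WAT to 2.22 to 183 in LPS, a log2 difference of 5.45 (exact permutation p = 0.00202, adjusted 0.00808). Col4a1 was below Col1a1 in every WAT library and above it in every tumour. Each tumour lay above all WAT libraries for Col4a1 and below them for Col1a1, so this ratio had to separate the groups. Its p adds nothing to the calls of the single chains.

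The other type IV chains, which replace Col4a1 and Col4a2 in specialised membranes such as that of the kidney glomerulus, were low and uneven. Col4a3 had 0.269 to 0.561 FPKM in WAT, and 6 of the 8 tumours were above that, up to 4.81 FPKM in LPS 7 (log2 difference 0.73 ± 0.33, limma adjusted p = 0.0839), and it was called after quantile normalization, with array quality weights, and without LPS 1 or LPS 2. Col4a4 had 0.444 to 0.730 FPKM in WAT, against 0.257 to 9.09 FPKM in the tumours, again highest in LPS 7 (0.66 ± 0.45, adjusted p = 0.252). Col4a5 had 4.63 to 6.08 FPKM in WAT. In LPS it stood at 2.45, 3.55, 5.95, 1.23, 0.487, 12.1 and 0.0573 FPKM in LPS 1, 2, 3, 5, 6, 7 and 8 and was listed at 0 in LPS 4 (-1.17 ± 0.61, adjusted p = 0.137). Col4a6 was too low to test, at 0.264 to 0.778 FPKM in WAT, against 0.0801 to 0.909 FPKM in the tumours. LPS 7 thus had the highest level of all 4 minor chains. Neighbours went together among the tumours: r was 0.949 for Col4a3 and Col4a4 (exact permutation p = 0.000347, adjusted 0.00201; rho 0.976, p = 0.000397, adjusted 0.00357) and 0.814 without LPS 2 and LPS 7. For Col4a5 and Col4a6 r was 0.815 (exact permutation p = 0.00491, adjusted 0.00737; rho 0.857, p = 0.0107, adjusted 0.0193) and 0.675 without LPS 4 and LPS 7. Both pairs were chosen after their values were seen. The 71 bases between Col4a4 and Col4a3 held neither TGGGAA nor CCAAT.

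**Figure D5:**
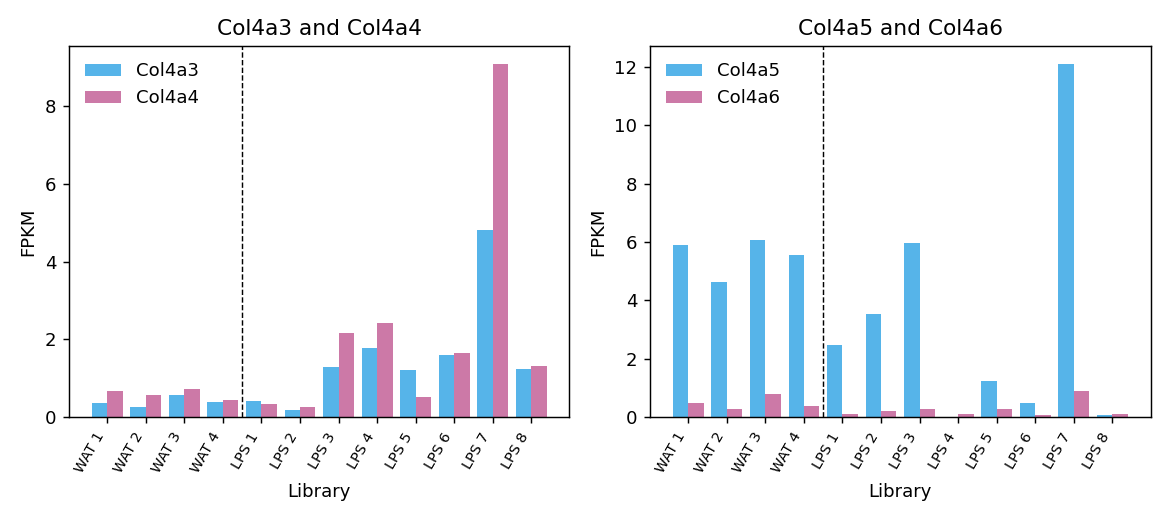
FPKM (y axis) of the minor type IV chains in each library (x axis; the dashed line parts WAT from LPS), with Col4a3 and Col4a4 in the left panel and Col4a5 and Col4a6 in the right. LPS 7 is the highest tumour for all 4 chains, at 4.81, 9.09, 12.1 and 0.909 FPKM, and Col4a5 lies between 0 and 12.1 FPKM in LPS against 4.63 to 6.08 FPKM in WAT.

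The multiplexins, collagens XV and XVIII, link the basement membrane to the matrix around it, and their C-terminal fragments, among them endostatin from type XVIII, act on vessels. Col18a1 (chromosome 10) stood at 37.1, 32.8, 36.9 and 18.5 FPKM in WAT and at 291, 199.9, 143, 171, 186, 415, 293 and 236 FPKM in LPS 1 to 8. All tumours exceeded WAT, by 7.72-fold on the means and 2.88 ± 0.28 on the log2 scale (limma adjusted p = 2.2e-06). Col15a1 (chromosome 4) stood at 155, 129, 148 and 136 FPKM in WAT and at 175, 138, 18.2, 260.1, 123, 547, 117 and 319 FPKM in LPS. It lay above WAT in 4 tumours and below it in 3, with LPS 3 far below (log2 difference 0.11 ± 0.66, limma adjusted p = 0.905). The ratio of Col18a1 to Col15a1 went from 0.137 to 0.253 in WAT to 0.658 to 7.83 in LPS (log2 difference 2.82, exact permutation p = 0.00202, adjusted 0.00808). Per Col4a1 transcript, Col18a1 was higher (log2 difference 1.19, exact permutation p = 0.0101, adjusted 0.0202) and Col15a1 lower (-1.63, p = 0.0222, adjusted 0.0333). The latter was lost without any 1 WAT library (adjusted p = 0.1 to 0.109).

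Among the beaded chains the change was uneven between partners of one trimer. Type VI collagen joins Col6a1 and Col6a2 with Col6a3 or one of its relatives Col6a4, Col6a5 and Col6a6. Col6a3 (chromosome 1) stood at 184, 149, 169.5 and 116 FPKM in WAT and at 1696, 565, 827, 476, 352, 471, 381 and 446 FPKM in LPS 1 to 8. All tumours lay above WAT, with LPS 1 by far the highest (log2 difference 1.89 ± 0.36, limma adjusted p = 0.000818). Col6a1 stood at 210.3, 179.9, 197 and 220.1 FPKM in WAT and at 481, 74.1, 641, 118, 35.0, 193, 224 and 29.0 FPKM in LPS. Col6a2 stood at 193, 163, 179.7 and 185 FPKM and at 481, 122, 513, 143, 79.3, 261, 184 and 93.3 FPKM. For both, LPS 1 and LPS 3 lay well above WAT and LPS 2, LPS 4, LPS 5 and LPS 8 below it, and neither was called (limma adjusted p = 0.571 and 0.926).

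Col6a1 and Col6a2, which lie next to each other on chromosome 10, went together among the tumours (r = 0.964, exact permutation p = 0.000446, adjusted 0.00201; rho 0.952, p = 0.00114, adjusted 0.00513; r = 0.959 without LPS 3 and LPS 8). Col6a1 and Col6a3 had an r of 0.675 (exact permutation p = 0.0569, adjusted 0.0686; rho 0.595, p = 0.132, adjusted 0.170; r = 0.684 without LPS 3 and LPS 8). These correlated pairs, too, were chosen after their values were seen. The ratio of Col6a3 to Col6a1 was 0.5264 to 0.874 in WAT and 1.29 to 15.4 in LPS, with a log2 difference of 2.46 (exact permutation p = 0.00606, adjusted 0.0145). Col6a3 was below Col6a1 in each WAT library and above it in each tumour, most of all in LPS 8 (15.4) and LPS 5 (10.1), where Col6a1 was lowest. Col6a2 to Col6a1 did not pass (0.63, exact permutation p = 0.117, adjusted 0.141).

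The alternative partner Col6a6 was close to 0 in the tumours. It stood at 14.6, 7.69, 9.15 and 6.44 FPKM in WAT. In LPS it stood at 0.0266 to 0.438 FPKM, with a median of 0.0633 FPKM. By the rough estimate above, 1 fragment of a 6-kb transcript is worth 0.00737 to 0.0157 FPKM in LPS. The means were apart by 72.3-fold and the log2 difference was -3.16 ± 0.18. Only the WAT libraries brought it past the filter, so these values are given as a description, and in the 5 alternatives that leave out a WAT library it was not tested. Col6a5 had 0.953 to 1.44 FPKM in WAT and 0.0183 to 1.47 in LPS, where LPS 1 alone lay above WAT (-0.67 ± 0.23, adjusted p = 0.0284). That call was lost after quantile normalization, without WAT 3, and with the replicate number as a block. In fits that left out WAT 1, WAT 2, WAT 4 or LPS 1, Col6a5 fell below the filter and was not tested. Col6a4 had 0.525 to 1.76 and 0.116 to 7.51 FPKM and was not called (adjusted p = 0.727).

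Of the other collagens, Col8a1 was far higher in the tumours. Col8a1, a short chain of the hexagonal network of vessel walls and the cornea, stood at 2.00, 0.826, 1.96 and 1.36 FPKM in WAT and at 53.6, 5.33, 51.9, 42.3, 23.9, 107, 48.1 and 29.4 FPKM in LPS 1 to 8. Every tumour was above WAT, LPS 2 by the least and LPS 6 by the most. The means differed 29.4-fold and the log2 difference was 3.88 ± 0.56 (limma adjusted p = 8.48e-05), called in all 21 alternatives. Its partner Col8a2 was at most 0.446 FPKM in fat and 1.34 FPKM in tumours and was not tested. Col10a1, the short chain of growth plate cartilage, lay at 2.23 to 3.26 FPKM in WAT, at 1.46 to 2.79 FPKM in 7 tumours, and at 18.8 FPKM in LPS 1 (adjusted p = 0.957).

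The fibril-surface FACIT collagens parted. Col14a1, which lines mature fibrils in skin and tendon, stood at 49.3, 28.0, 48.6 and 25.4 FPKM in WAT and at 0.381 to 8.98 FPKM in LPS, with a median of 1.95 FPKM. All tumours lay below WAT, the nearest being LPS 5 (log2 difference -3.52 ± 0.45, limma adjusted p = 2.89e-05). Col12a1, its relative in tissue under load, stood at 4.60, 4.29, 4.67 and 3.06 FPKM in WAT and at 5.00 to 24.2 FPKM in LPS, with a median of 11.8 FPKM. All tumours lay above WAT, LPS 7 by the least (1.36 ± 0.34, limma adjusted p = 0.00552, and 0.0916 without WAT 1, WAT 4 and LPS 8). Col16a1 and Col20a1 were not called (adjusted p = 0.197 and 0.871).

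Transmembrane collagens were low throughout. Col25a1, a component of amyloid plaques that is needed for the innervation of muscle, stood at 0.0405 to 0.102 FPKM in WAT. In LPS 1 to 8 it stood at 0.198, 6.33, 0.284, 9.82, 2.60, 4.59, 0.838 and 3.84 FPKM. The groups did not overlap, but LPS 1 and LPS 3 stayed near WAT (log2 difference 1.72 ± 0.55, limma adjusted p = 0.0207). Only tumours brought it past the filter, and the call was lost with the replicate number as a block, and without WAT 1, without WAT 3 or without WAT 1, WAT 4 and LPS 8. Col13a1 was at 5.16, 5.66 and 7.64 FPKM in LPS 1, LPS 3 and LPS 7, at 0.538 to 1.29 FPKM in the other tumours and at 0.704 to 1.74 FPKM in WAT (adjusted p = 0.327). These 3 tumours were the low ones for Col25a1. Of the chains outside these families, Col28a1, a collagen of the Schwann cell basement membrane, had 1.10 to 2.21 FPKM in WAT and 0.182 to 1.76 in LPS (-0.65 ± 0.21, adjusted p = 0.0246), a call lost in 5 alternatives. The 4 Schwann cell markers examined summed to 115 to 158 FPKM in WAT, against 1.53 to 5.41 FPKM in the tumours. All 4 were called lower, against 27% of all rows, and their part in this result was not tested. Col7a1, the anchoring fibril of skin, was not called in its joined row (adjusted p = 0.442).

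In all, 12 chains were too low to test: Col2a1, Col4a6, Col8a2, Col9a1, Col9a2, Col9a3, Col11a1, Col17a1, Col19a1, Col22a1, Col23a1 and Col26a1. The transmembrane chains Col23a1 and Col17a1 lay lower in every tumour than in any WAT library, at 0.990 to 1.52 FPKM against 0.173 to 0.538 FPKM and at 0.527 to 1.17 FPKM against 0.0289 to 0.483 FPKM. With no filter on low values, 8 chains were called higher and 10 lower, against 2646 and 5387 of the 27793 rows then tested. The 3 chains of type IX collagen, the FACIT of cartilage, stayed at or below 1.26 FPKM in all libraries.

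Further pairs were examined within LPS, and not all of them went together. Col3a1 and Col5a2, neighbours on chromosome 1, had an r of 0.935 (exact permutation p = 0.00186, adjusted 0.00335; rho 0.810, p = 0.0218, adjusted 0.0327), and 0.631 without LPS 1 and LPS 7. Col5a1 and Col5a2, on different chromosomes, had an r of 0.943 (exact permutation p = 0.00181, adjusted 0.00335; rho 0.881, p = 0.00724, adjusted 0.0163), and 0.775 without LPS 1 and LPS 7. Col15a1 and Col18a1 had an r of 0.676 (exact permutation p = 0.0610, adjusted 0.0686; rho 0.452, p = 0.267, adjusted 0.267), and -0.19 without LPS 3 and LPS 6. The 9 pairs were chosen after their values were seen, and no batch label was given within which they could be recomputed. Of the 12 chain ratios compared between the groups, 8 had an adjusted p below 0.05, and 7 further ratios were not tested because a chain was below 1 FPKM in some library. Among the 8, the separation of Col4a1 to Col1a1 was fixed by its chains. The ratios were chosen with earlier results of these data known.

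Age in months was the one label that differed among the tumours, and no chain was called on it. Within LPS, 0 of 29 chains tested had a slope on age in months at an adjusted p below 0.05 (limma), as did 0 of all 13280 rows (0%). At an unadjusted p below 0.05 there was 1 chain, Col1a1 (log2 slope 0.96 ± 0.37 per month, SE), against 228 rows (1.72%). Slopes of the chains ran from -0.48 to 1.13 per month.

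Genes that modify and fold collagen in the endoplasmic reticulum were higher or not called. Of 19 tested genes 11 were higher and none lower, against 18.9% and 27% of all rows, with a median log2 difference of 0.61 against -0.05 over all rows, and 1 was lower without LPS 2, LPS 5 or LPS 8. P3h3, a member of the prolyl 3-hydroxylase family that works in a complex with a lysyl hydroxylase, rose from a WAT mean of 10.3 ± 1.61 FPKM (SD, n = 4) to an LPS mean of 73.8 ± 22.4 FPKM (SD, n = 8; limma adjusted p = 1.23e-06). P3h2, the prolyl 3-hydroxylase that acts on type IV collagen, rose from 1.89 ± 0.191 to 9.50 ± 6.19 FPKM. The groups did not overlap for either (P3h2 limma adjusted p = 0.00144). Sparc, a collagen chaperone and binding protein and the most abundant of the list, was not called at 984 and 1309.9 FPKM (limma adjusted p = 0.277; called higher after quantile normalization, adjusted p = 0.0124). Serpinh1, the collagen chaperone HSP47, was not called at 342 and 376 FPKM.

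Genes of secretion and propeptide processing divided, with 4 of 11 higher and 5 lower, against 18.9% and 27% of all rows, and a median log2 difference of -0.08. Adamts14, which is among the lower genes, passed the filter through WAT alone. Sec24d and Sec23a, coat proteins of the vesicles that carry procollagen, rose: Sec24d had means of 16.7 FPKM in fat and 29.4 FPKM in tumours, and Sec23a 22.2 and 35.0 FPKM. Pcolce2, an enhancer of the C-propeptide cleavage, fell from 6.69 ± 2.31 to 0.306 ± 0.551 FPKM, and Adamts2, which removes the N-propeptide of types I and III, from 22.6 ± 5.82 to 4.14 ± 3.33 FPKM (limma adjusted p = 5.5e-06 and 0.00139). All tumours lay outside the WAT range for these 4 genes. The joined row of Pcolce was not called at 109 and 106 FPKM. The count of higher genes was 2 without WAT 1, without WAT 2 or without WAT 4.

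Cross-linking enzymes changed in both directions. Of 7 genes 2 were higher and 3 lower, against 18.9% and 27% of all rows, with a median log2 difference of -0.63. Loxl4, the lower gene not described below, passed the filter through WAT alone, at 1.13 to 1.40 FPKM against at most 0.711 FPKM in LPS. Loxl3 rose from 4.98 ± 1.26 to 24.7 ± 6.94 FPKM and the joined row of Loxl2, a lysyl oxidase that acts on type IV collagen, from 5.51 ± 1.64 to 18.2 ± 7.72 FPKM (limma adjusted p = 4.81e-06 and 0.00096). Loxl1 fell from 37.0 ± 5.53 to 5.46 ± 4.49 FPKM (adjusted p = 0.000132), and the transglutaminase Tgm2 from 50.9 ± 10.9 to 30.7 ± 11.7 FPKM. The groups were apart for Loxl1, Loxl2 and Loxl3 and overlapped for Tgm2, whose call was lost in 5 alternatives. Lox itself ran from 0.118 to 84.0 FPKM in LPS, against 11.3 to 28.1 FPKM in WAT, with LPS 5 the highest (limma adjusted p = 0.0663). Pxdn, which forms the sulfilimine bond of type IV collagen, was not called at 66.9 and 49.5 FPKM. The count of lower genes was 1 without WAT 1, without WAT 2, without WAT 3 or after quantile normalization.

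Of 11 tested receptors and uptake genes of collagen 5 were higher and 1 lower, against 18.9% and 27% of all rows. The median log2 difference was -0.15, against -0.05 over all rows, and 0.61 without Itga11, which passed the filter through WAT alone. Itga1, the integrin chain that prefers type IV collagen, rose from 18.1 ± 0.600 to 111 ± 34.5 FPKM and Ddr2, a kinase receptor of fibrillar collagen, from 19.98 ± 0.877 to 76.4 ± 11.9 FPKM (limma adjusted p = 5.63e-07 and 1.06e-07). Itga11, an integrin chain for type I collagen on fibroblasts, had 2.48 ± 0.440 FPKM in WAT and 0.237 ± 0.266 FPKM in LPS, given as a description, and without any 1 WAT library it was not tested. The groups did not overlap for Itga1 and Ddr2, and 32.6% of all rows did not overlap. For Itga11 they did not overlap either, but there the filter itself favoured a difference. The joined row of Itga10 was not called at 16.3 and 14.8 FPKM.

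Of 13 partners of fibrils and basement membranes, 3 were higher and 4 lower, against 18.9% and 27% of all rows, with a median log2 difference of 0.03. Bgn, a small proteoglycan, rose from 53.7 ± 1.48 to 182 ± 86.8 FPKM, and Nid2, a linker of laminin and type IV collagen, from 32.5 ± 11.2 to 63.7 ± 23.2 FPKM. Dcn and Lum, proteoglycans that coat fibrils, fell, Dcn with means of 209 ± 39.0 and 12.3 ± 11.1 FPKM and Lum with 63.1 ± 10.8 and 4.46 ± 3.94 FPKM (limma adjusted p = 0.000219 and 5.4e-05). Nid2 overlapped between the groups, and its call was lost without WAT 4 (and without WAT 1, WAT 4 and LPS 8), while Bgn, Dcn and Lum did not overlap. Postn, a matrix protein of the fibril surface, was not called at 311 and 537 FPKM. After quantile normalization 5 of these partners were higher. Without WAT 1, WAT 4 and LPS 8 the lists above held 6, 2, 2, 5 and 1 higher genes and 0, 2, 2, 0 and 2 lower genes, in the order given.

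Marker genes of several cell types differed between the groups as well. The counts of calls below stand against 18.9% of all rows called higher and 27% called lower, and each list is short. The 5 adipocyte markers summed to 3427 to 4354 FPKM in WAT, against 0.857 to 35.0 FPKM in the tumours (5 of 5 lower). The 6 fibroblast markers summed to 272 to 414 and 5.82 to 59.9 FPKM (5 of 6 lower, Dcn and Lum among them), and the 6 pericyte markers to 171 to 194 and 3308 to 6809 FPKM (6 of 6 higher). The 6 endothelial markers summed to 157 to 194 and 108 to 163 FPKM (1 higher, 4 lower), a sum that hides opposite directions. Emcn was higher, with means of 10.8 FPKM in WAT and 54.4 FPKM in LPS, while Pecam1, Cdh5, Kdr and Tek were lower and Tie1 was not called. The 5 smooth muscle markers summed to 96.5 to 150 and 117 to 226 FPKM (of 4 tested, 1 higher and 1 lower). The 3 macrophage markers summed to 33.6 to 43.0 and 32.6 to 129 FPKM (1 higher, Adgre1). The 5 bone markers summed to 2.38 to 3.07 and 8.45 to 42.9 FPKM (2 of 3 tested higher, Sp7 and Dmp1), with Bglap and Ibsp too low to test. The 5 cartilage markers summed to 0.621 to 0.915 and 1.35 to 13.2 FPKM, and Sox9, the only 1 tested, was higher. In LPS 4, the highest sum, Sox9 held 12.5 of the 13.2 FPKM, and Acan, Comp, Hapln1 and Matn1 were too low to test. Sp7, Dmp1 and Sox9 each passed the filter through LPS alone. The groups did not overlap for Adgre1, and 32.6% of all rows did not overlap. For Sp7, Dmp1 and Sox9 the groups did not overlap either, but there the filter itself favoured a difference. Epithelial markers summed to at most 10.7 FPKM in any library, and no marker was at 0 in all libraries. The part of these cell types in the collagen results was not tested.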

How the data were processed

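Per the labels' protocols, ribosomal RNA was removed from the total RNA of 4 WAT and 8 LPS samples before stranded library preparation. The authors deposited 1 table of FPKM values per gene locus. Bowtie2, TopHat2 2.1.0, Trimmomatic, Cuffdiff 2.2.1, Cufflinks 2.2.1 and the build GRCm38 are named in the submitters' processing notes. Their roles, any further scaling between libraries and the use of strand are not given in the sources used here. A listed 0 can be a failed estimate.

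The 14821 rows that reached 1 FPKM in 4 or more of the 12 libraries entered a limma fit (version 3.58.1, R 4.3.3) of log2(FPKM + 1), pseudocount 1, with trend and robust empirical Bayes, no covariate and Benjamini-Hochberg adjustment over all rows at 0.05. This scale understates differences of low genes. Age was fitted the same way within LPS, over 13280 rows. Log2 ratios of 2 chains, with no pseudocount, were compared by exact two-sided permutation over the 495 divisions of 12 libraries (SciPy 1.17.1), adjusted over 12 ratios of 19 listed. Correlations within LPS, over 9 pairs, used all pairings. The 2 libraries left out of each further r were those farthest from the median of the chain named first, whatever the values of the other chain. Both limma fits were first tested on simulated data with known changes. Coordinates were counted from 1, and glycine runs were read from GENCODE M21 coding sequences at the level of codons.

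All chains are accounted for. From each pathway list were named the 2 largest calls each way and the most abundant gene not called; Serpinh1 and Lox were added after their values were seen. The members, classes, lists and ratios were chosen with earlier results of these data known. Alternatives were another pseudocount, no filter, 2 scalings, array quality weights, plain empirical Bayes, the Xist level as a covariate, a replicate block, and leaving out each library. A fit without WAT 1, WAT 4 and LPS 8, and a replicate block for the ratios, were added after seeing the data.

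Replicate numbers recur in both groups. The correlations of same-numbered deviations from the group means were -0.017, 0.0175, 0.0921 and 0.0332 for numbers 1 to 4, so the numbers were not taken to pair the samples.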

Additional observations from a re-analysis of the deposited data

Results flagged for a closer look

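Within each group, the highest and lowest library was compared with its nearest neighbour for every tested chain, named pathway gene and chain ratio. Of 132 groups examined, 14 held a library farther from the rest than Dixon's limit; chance flags about 1 in 20 groups.

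WAT 4 stood apart from the other WAT libraries in 6 of them. It was high for the transmembrane chain Col13a1 (1.74 FPKM, nearest 0.805) and for the ratio of Col5a3 to Col5a1 (3.27, nearest 1.32). It was low for the ratios of Col6a2 to Col6a1 (0.840, nearest 0.905), Col6a3 to Col6a1 (0.5264, nearest 0.826) and Col18a1 to Col15a1 (0.137, nearest 0.239), and for the joined row of the integrin Itga10 (14.3 FPKM, nearest 16.8). WAT 2 was low for the proteoglycan gene Bgn (51.5 FPKM, nearest 54.3).

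LPS 3 was low for Col15a1 (18.2 FPKM, nearest 117) and for its ratio to Col4a1 (0.0143, nearest 0.140). LPS 1 was high for Col10a1 (18.8 FPKM, nearest 2.79) and for Col6a6 (0.438 FPKM, nearest 0.198). LPS 5 was high for Pcolce2 (1.65 FPKM, nearest 0.264) and low for Itga10 (9.26 FPKM, nearest 13.4), and LPS 6 was high for the joined row of Col7a1 (2.12 FPKM, nearest 1.07).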

How the results depend on the processing

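Of the 15 called chains, 7 kept their call in all 21 alternatives: Col6a3, Col18a1, Col1a1, Col14a1, Col8a1, Col4a2 and Col4a1. Of 66 named genes, chains and ratios, none of the 40 called changed sign in any alternative, and 11 of the 26 not called did in at least 1 (Col10a1, Col6a2, Col6a1, Col5a1, Col20a1, Col15a1, Col7a1, Col6a4, Pcolce, Postn and Col1a2 to Col1a1). With array quality weights 10 chains were higher and 10 lower, and over all rows 4029 were higher and 4642 lower, in place of 2806 and 4007. The number of chains called lower (7) was 4 after quantile normalization and 3 to 8 when 1 library was left out. Without WAT 1, WAT 4 and LPS 8, a fit added after seeing the data, 5 chains were higher (8 with all libraries) and 2 lower, and 1327 rows were higher (2806) and 1999 lower (4007); fewer samples entered it. Leaving out 1 library gave log2 differences of 2.13 to 2.91 for Col3a1 to Col1a1 and -1.80 to -1.16 for Col15a1 to Col4a1, both lost without any 1 WAT library, and -0.25 to -0.17 for Col4a2 to Col4a1, called without LPS 7; beyond the smaller number of divisions, the cause was not tested. With no filter, 67.1% of calls over all rows were lower, against 58.8%.

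With the replicate number as a block, 7 chains were higher and 6 lower, and 6039 rows were called in place of 6813; the pairing had no support in the samples' deviations, of which only those of numbers 3 and 4 correlated best with their own number. For the ratios a replicate block was added after seeing the data, with differences within the 4 shared numbers; its 16 swaps cannot give a p below 0.125, so it decides no call. The log2 differences were 2.68 (Col3a1 to Col1a1), 4.00 (Col5a1 to Col1a1), 0.98 (Col5a2 to Col5a1), 5.47 (Col4a1 to Col1a1), 2.19 (Col6a3 to Col6a1), 3.14 (Col18a1 to Col15a1), -2.31 (Col15a1 to Col4a1) and 0.82 (Col18a1 to Col4a1), each with an exact permutation adjusted p = 0.15. No paired analysis was possible for age because numbers do not recur within LPS. Depth limits the lowest chains. With 1 fragment of a 6-kb transcript roughly estimated at 0.00602 to 0.0157 FPKM, values such as those of Col6a6 in LPS would rest on few fragments. No counts were recovered.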
